A study of Mus musculus with 4 samples.

Results

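The genes described here are 10 cytosolic chaperone genes: the 8 subunits of the chaperonin TRiC (Tcp1, Cct2, Cct3, Cct4, Cct5, Cct6a, Cct7 and Cct8), the constitutive HSP90 gene Hsp90ab1 and the constitutive HSP70 gene Hspa8. They were chosen by symbol, and all 10 were found among the 20555 genes of the deposited table. RNA had been sequenced from whole mammary tumours of mice that carry PyMT, the polyoma virus middle T antigen, a standard driver of mammary tumours in mice. The MYC-PyMT group also carries a Cre recombinase driven by S100a8 and a MYC allele at Rosa26 that is silent until Cre cuts out a stop cassette. The Control-PyMT group is labelled with the PyMT genotype alone, and each group has 2 libraries. S100a8 is a gene of neutrophils, so the promoter that drives Cre is that of a cell type which makes up only some of a tumour's cells. The labels give no age for the mice.

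TRiC, also called CCT, is a double ring in which each ring holds 1 copy of every subunit. It takes up unfolded chains, closes a built-in lid as ATP is hydrolysed, and releases folded actin, tubulin, WD40-repeat proteins such as CDC20, and other clients. HSP70 proteins bind short greasy stretches of new or unfolded chains together with J-protein partners. HSP90 acts later, on nearly folded kinases and receptors. Hspa8 and Hsp90ab1 encode the forms of HSP70 and HSP90 that cells make without stress, whereas Hspa1a, Hspa1b and, in part, Hsp90aa1 are raised by heat shock through the factor HSF1. MYC is a transcription factor that binds the E-box CACGTG.

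Library sizes were 34190913 and 31783846 reads in MYC-PyMT and 32245080 and 32879311 reads in Control-PyMT, with 1.15% to 1.60% of reads on the top gene. Values are the deposited scaled counts, which are whole reads divided by a size factor for each library, and changes come from limma on log2(scaled count + 1) with p adjusted over all tested genes. The mouse Myc row held 3215 and 2815 scaled counts in MYC-PyMT, against 1832 and 2820 in Control-PyMT (log2 change 0.40, SE 0.23, limma adjusted p = 0.172). Whether reads from the Rosa26 allele were counted on that row is not stated, so the row does not check the labels. Luminal epithelial markers were abundant in both groups, with 87053 and 88927 scaled counts summed over Krt8, Krt18, Krt19, Epcam and Cdh1 in MYC-PyMT and 115287 and 110721 in Control-PyMT. Of all 16725 genes tested, 47.9% passed the threshold (limma, adjusted p under 0.05), 23.3% higher and 24.6% lower in MYC-PyMT. The median log2 change of all tested genes was -0.018, and the middle part of the distribution, between the quartiles, ran from -0.74 to 0.64.

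To show where these genes start, RefSeq promoter windows (build GRCm38.p6; 280 bases, from 250 before the annotated start to 30 after it) were matched by symbol. Windows were found for Tcp1, Cct2, Cct3, Cct5, Cct6a, Cct7 and Cct8, which is 7 of the 10 genes, while Cct4, Hsp90ab1 and Hspa8 did not match. Cct2 and Cct5, and the relatives Hspd1 and Hsph1 used below, had 2 windows each. For each gene only the window nearest the annotated gene start was searched, so other starts are not covered. The 3 subunits printed are Cct8, whose change was the highest of the 8, Cct7, whose change was the lowest, and Cct5, the most abundant per length. Hspe1, the mitochondrial co-chaperonin, and Hspa1b, the heat-inducible HSP70, are printed as relatives whose windows hold heat shock units. Capitals mark the E-box CACGTG, the heat shock units GAANNTTC and TTCNNGAA, and the CCAAT box (CCAAT, or ATTGG on the other strand).
Cct8, chr16:87495840-87496119, minus strand: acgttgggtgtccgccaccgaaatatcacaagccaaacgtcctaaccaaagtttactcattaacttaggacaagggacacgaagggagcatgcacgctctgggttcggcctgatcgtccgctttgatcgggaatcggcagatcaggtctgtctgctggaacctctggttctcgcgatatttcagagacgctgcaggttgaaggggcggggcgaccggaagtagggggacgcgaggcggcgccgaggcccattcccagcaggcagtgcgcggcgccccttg
Cct7, chr6:85451255-85451534, plus strand: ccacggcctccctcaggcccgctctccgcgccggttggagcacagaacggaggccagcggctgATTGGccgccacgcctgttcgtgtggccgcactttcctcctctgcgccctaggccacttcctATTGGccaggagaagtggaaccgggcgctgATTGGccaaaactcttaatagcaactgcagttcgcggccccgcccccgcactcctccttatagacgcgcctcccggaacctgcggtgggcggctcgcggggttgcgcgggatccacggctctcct
Cct5, chr15:31601817-31602096, minus strand: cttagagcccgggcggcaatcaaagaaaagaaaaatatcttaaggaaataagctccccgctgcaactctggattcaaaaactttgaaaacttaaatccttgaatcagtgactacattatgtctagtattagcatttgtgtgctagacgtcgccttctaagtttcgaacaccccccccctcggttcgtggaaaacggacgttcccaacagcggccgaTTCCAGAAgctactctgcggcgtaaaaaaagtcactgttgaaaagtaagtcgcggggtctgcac
Hspe1, chr1:55087898-55088177, plus strand: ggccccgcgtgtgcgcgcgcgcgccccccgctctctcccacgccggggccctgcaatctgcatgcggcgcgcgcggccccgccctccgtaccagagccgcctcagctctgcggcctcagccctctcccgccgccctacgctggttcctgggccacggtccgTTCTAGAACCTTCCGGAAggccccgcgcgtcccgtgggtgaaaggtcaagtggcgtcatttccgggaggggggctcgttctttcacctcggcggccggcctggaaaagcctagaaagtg
Hspa1b, chr17:34959209-34959488, minus strand: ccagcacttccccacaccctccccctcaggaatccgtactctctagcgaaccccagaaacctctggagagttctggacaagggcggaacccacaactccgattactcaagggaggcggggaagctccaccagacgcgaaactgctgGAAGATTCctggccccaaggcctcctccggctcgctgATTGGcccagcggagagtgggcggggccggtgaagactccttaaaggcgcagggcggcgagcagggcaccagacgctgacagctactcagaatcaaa

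None of the 7 chaperonin windows held CACGTG, which stood in 6.79% of 32851 windows of the same length. None of the 7 held GAANNTTC, found in 7.38% of all windows. The other heat shock unit, TTCNNGAA, was in 1 of the 7, that of Cct5 (8.03% of all windows). Among 8 relatives with a window, CACGTG stood in those of Hspd1 and Hsph1. Heat shock units stood in those of Hspe1, with overlapping units of both kinds in 1 run of capitals, of Hspa1a and Hspa1b, with 1 GAANNTTC each, and of Hsph1, with 1 TTCNNGAA. The windows of Cct6b, Trap1 and Hspa5 held neither kind of motif. A CCAAT box, the site of the factor NF-Y, was in 4 of the 7 (Tcp1, Cct3, Cct6a and Cct7; 36.1% of all windows), and Cct7 had 3 of them. The GC box GGGCGG or its reverse CCGCCC, the site of SP1-like factors, was in 7 of the 7 (34.7% of all windows); it was searched on both strands, as all motifs were, and is not capitalised. GC content of the 7 windows ran from 46.1% in Cct5 to 67.1% in Cct7. These are matches of letters only, and no binding was measured.

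All 10 chaperone genes were higher in MYC-PyMT than in Control-PyMT, and for each of them both MYC-PyMT libraries lay above both Control-PyMT libraries. All 10 were tested and all 10 passed as higher, where 23.3% of all tested genes did; both MYC-PyMT libraries stood above both Control-PyMT libraries for 37.0% of all tested genes. The 8 subunits rose 2.07-fold (Cct7) to 3.03-fold (Cct8), with a median log2 change of 1.26. All 8 were called with a log2 change of at least 1, as 14.4% of all tested genes were. Hsp90ab1 rose 1.79-fold and Hspa8 1.85-fold. Ranked by log2 change, the 8 subunits stood between the 85.5th (Cct7) and 94.2nd (Cct8) percentiles of all tested genes.

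**Figure D1:**
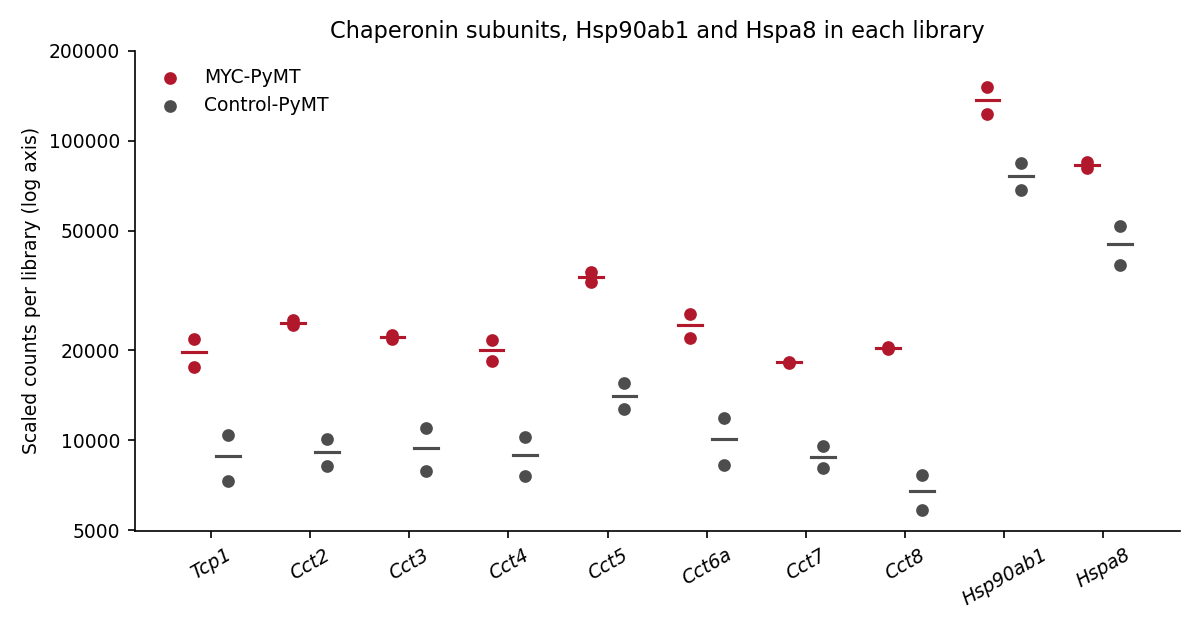
Scaled counts (log axis) of the 10 genes in each library, MYC-PyMT in red at the left of each pair and Control-PyMT in grey at the right; points are libraries and bars the means of 2. Each red pair lies above its grey pair, from Cct8, with 20143 and 20484 against 7674 and 5859, to Hsp90ab1, with 151666 and 122804 against 84433 and 68679.

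Among the subunits, Cct8, which encodes the theta subunit, had 20143 and 20484 scaled counts in MYC-PyMT, against 7674 and 5859 in Control-PyMT. The MYC-PyMT libraries were nearly level and the groups were far apart. The log2 change was 1.60 (SE 0.20, 95% interval 1.15 to 2.05, limma adjusted p = 0.000211). Cct8 lies at chr16:87483326-87495873 on the minus strand, and 192 exon bases are shared with Usp16 on the other strand, whose values were 3292 and 3042 in MYC-PyMT and 2334 and 2047 in Control-PyMT.

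Cct2, the beta subunit (chr10:117051001-117063814, minus strand), had 25136 and 24286 scaled counts in MYC-PyMT, against 10073 and 8178 in Control-PyMT. Its log2 change was 1.44 (SE 0.20, 95% interval 1.00 to 1.89, limma adjusted p = 0.000326). Cct5, the epsilon subunit (chr15:31590800-31601804, minus strand), had 33646 and 36483 in MYC-PyMT, against 15538 and 12666 in Control-PyMT. Neither gene's groups overlapped, and both MYC-PyMT libraries of each gene were far above its Control-PyMT libraries. The log2 change of Cct5 was 1.32 (SE 0.21, 95% interval 0.86 to 1.78, limma adjusted p = 0.000680).

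Cct6a, the zeta subunit, had 21946 and 26441 scaled counts in MYC-PyMT, against 11878 and 8292 in Control-PyMT. The spread within each group was wider than for Cct8, and the groups did not overlap. The log2 change was 1.28 (SE 0.23, 95% interval 0.77 to 1.79, limma adjusted p = 0.00144). Cct6a lies at chr5:129786998-129846371 on the plus strand, with 452 exon bases shared with Psph on the other strand. Psph, an enzyme of serine synthesis, had 2008 and 2620 scaled counts in MYC-PyMT and 580 and 502 in Control-PyMT, below Cct6a in every library. Cct3, the gamma subunit (chr3:88297116-88321767, plus strand), had 21788 and 22432 in MYC-PyMT, against 10951 and 7902 in Control-PyMT. Its groups did not overlap, and its log2 change was 1.25 (SE 0.21, 95% interval 0.77 to 1.73, limma adjusted p = 0.00114).

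Cct4, the delta subunit (chr11:22990519-23003780, plus strand), had 18460 and 21603 scaled counts in MYC-PyMT, against 10228 and 7591 in Control-PyMT. The log2 change was 1.18 (SE 0.21, 95% interval 0.70 to 1.66, limma adjusted p = 0.00157). Tcp1, the alpha subunit (chr17:12915701-12925067, plus strand), had 21863 and 17580 in MYC-PyMT, against 10408 and 7306 in Control-PyMT. Both genes varied within each group, without overlap between groups. The log2 change of Tcp1 was 1.17 (SE 0.23, 95% interval 0.66 to 1.68, limma adjusted p = 0.00235). Tcp1 shares 571 exon bases with Acat3 and 141 with Mrpl18, both on the other strand; Acat3 had 34.8 to 61.5 scaled counts over the 4 libraries. Mrpl18, a mitochondrial ribosomal protein gene, had 3948 and 4125 in MYC-PyMT and 1745 and 1441 in Control-PyMT. A stretch of 445 bases of Tcp1 also matched Acat2 at 98.7% identity. Acat2 had 1179 and 1088 in MYC-PyMT and 1024 and 726 in Control-PyMT.

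Cct7, the eta subunit (chr6:85451514-85468475, plus strand), had 18285 and 18100 scaled counts in MYC-PyMT, against 9550 and 8070 in Control-PyMT. The groups did not overlap, and the log2 change was the smallest of the 8 subunits at 1.05 (SE 0.19, 95% interval 0.62 to 1.48, limma adjusted p = 0.00159). Its 95% interval overlapped that of Cct8, and the difference between the 2 changes was not tested in the fit. Cct7 shares 214 exon bases with Pradc1 on the other strand. Pradc1 had 1367 and 1169 scaled counts in MYC-PyMT and 968 and 972 in Control-PyMT. With each of the 4 libraries left out in turn, every one of the 8 subunits still passed as higher, with log2 changes from 0.91 (Tcp1) to 1.79 (Cct8) and limma adjusted p of at most 0.0441. For all 10 genes, Control-PyMT replicate 1 was above Control-PyMT replicate 2.

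Hsp90ab1, the constitutive cytosolic HSP90 (chr17:45567775-45573271, minus strand), had the most reads of the 10 genes. It held 151666 and 122804 scaled counts in MYC-PyMT, against 84433 and 68679 in Control-PyMT. The groups did not overlap, and in both groups replicate 1 was the higher library. The log2 change was 0.84 (SE 0.26, 95% interval 0.26 to 1.42, limma adjusted p = 0.0228). That call was lost without any single library: the log2 change was 0.69 without MYC-PyMT replicate 1 (limma adjusted p = 0.241), 0.99 without MYC-PyMT replicate 2 (limma adjusted p = 0.0687), 0.99 without Control-PyMT replicate 1 (limma adjusted p = 0.0650) and 0.69 without Control-PyMT replicate 2 (limma adjusted p = 0.124).

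Hspa8, the constitutive HSP70 that also strips clathrin from vesicles (chr9:40800984-40810087, plus strand), had 81149 and 84793 scaled counts in MYC-PyMT, against 51986 and 38522 in Control-PyMT. The MYC-PyMT libraries were close to each other, and the groups did not overlap. The log2 change was 0.89 (SE 0.24, 95% interval 0.35 to 1.43, limma adjusted p = 0.0131). It still passed without Control-PyMT replicate 1 (1.11, limma adjusted p = 0.0312), but not without MYC-PyMT replicate 1 (0.92, limma adjusted p = 0.0748), MYC-PyMT replicate 2 (0.86, limma adjusted p = 0.0893) or Control-PyMT replicate 2 (0.67, limma adjusted p = 0.0771). Hspa8 has 6 annotated near-copies of 95.3% to 99.7% identity. The 4 with a row summed to 164 and 126 scaled counts in MYC-PyMT and 95.4 and 67.9 in Control-PyMT, at most 0.202% of Hspa8 in any library. How the authors counted reads that match several places is not stated.

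**Figure D2:**
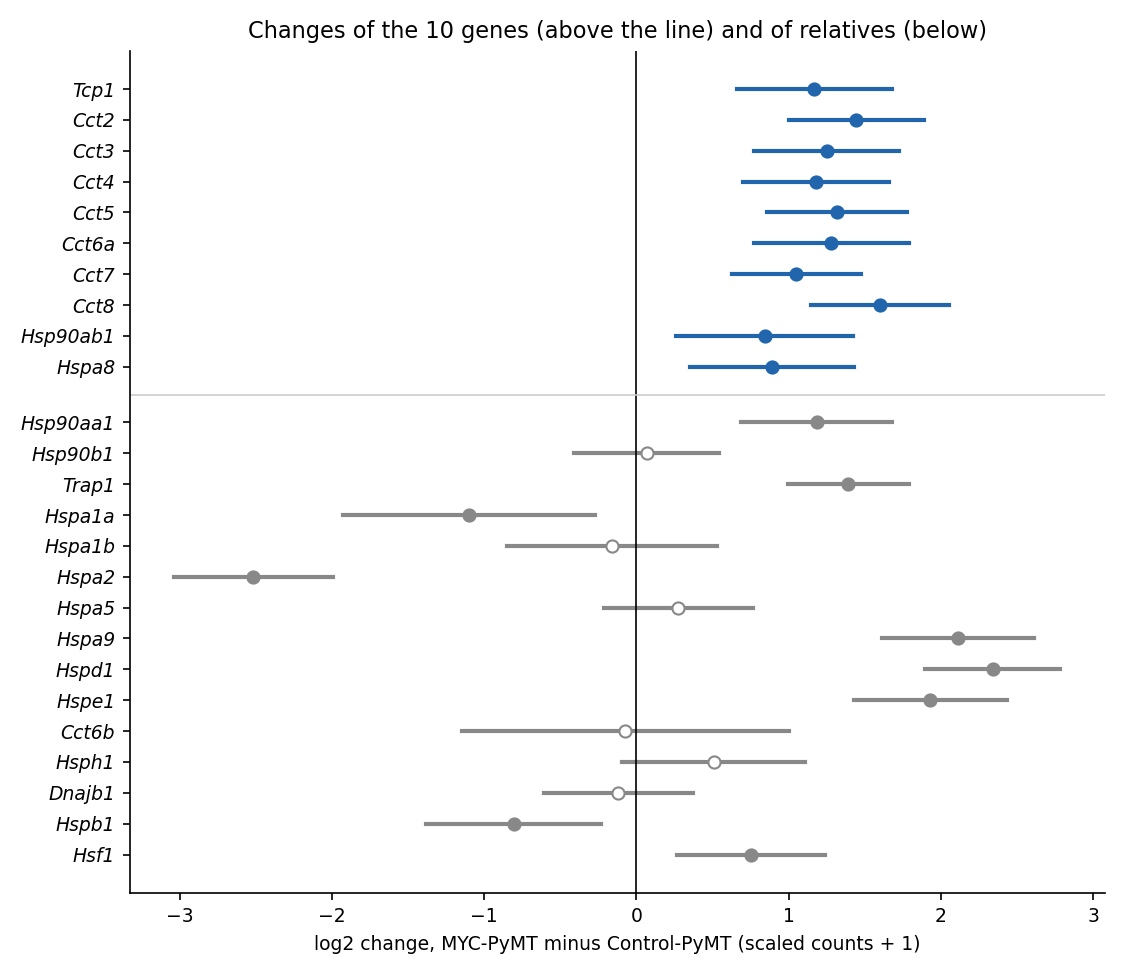
Log2 change (MYC-PyMT minus Control-PyMT, points) with 95% intervals (lines) from limma for the 10 genes, above the grey line, and for 15 relatives below it; filled points have an adjusted p under 0.05. The 10 genes are all filled and between 0.84 and 1.60, whereas the relatives spread from -2.52 (Hspa2) to 2.34 (Hspd1).

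As a share of a library, the 10 genes took 1.20% and 1.13% of reads in MYC-PyMT, against 0.739% and 0.620% in Control-PyMT. The 8 subunits together took 0.527% and 0.537% in MYC-PyMT and 0.286% and 0.236% in Control-PyMT. Hsp90ab1 alone took 0.441% and 0.352% in MYC-PyMT and 0.280% and 0.246% in Control-PyMT. This single HSP90 gene thus drew fewer reads than the whole chaperonin in MYC-PyMT and about as many in Control-PyMT.

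Because shares of the same library do not depend on its scaling, each gene was also set against the mean of the 8 subunits within a library, as a log2 ratio. These ratios are of scaled counts, not per length, and are compared only between groups. Hsp90ab1 stood at 2.77 and 2.43 in MYC-PyMT and at 2.99 and 3.09 in Control-PyMT. Hspa8 stood at 1.87 and 1.89 in MYC-PyMT and at 2.29 and 2.26 in Control-PyMT. Both were lower relative to the chaperonin in MYC-PyMT, by 0.44 and 0.40 on average. This restates their log2 changes, which were smaller than those of the subunits. Within the chaperonin, Cct8 was the subunit whose proportion differed most, at -0.14 and -0.16 in MYC-PyMT against -0.47 and -0.46 in Control-PyMT. Cct7 differed the other way, at -0.28 and -0.34 in MYC-PyMT against -0.15 and 0.00 in Control-PyMT. Cct5 kept close to the same proportion in all 4 libraries, between 0.55 and 0.68. The 2 libraries of a group agreed to within 0.02 for Cct8 but were 0.35 apart for Tcp1 in MYC-PyMT. The proportions are given as values; the differences between groups in them were not tested.

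**Figure D3:**
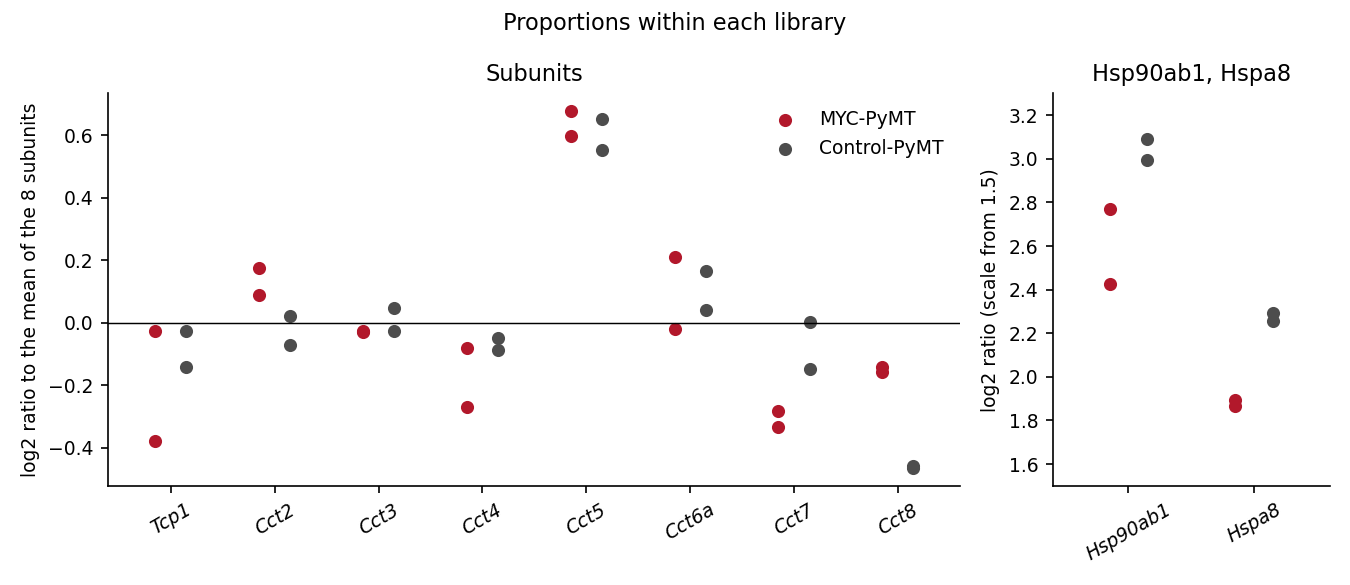
Log2 ratio of each gene's scaled counts to the mean of the 8 subunits in the same library, with MYC-PyMT in red at the left and Control-PyMT in grey at the right; points are libraries, and the right panel has its own scale. Cct8 is higher in both red libraries (-0.14 and -0.16 against -0.47 and -0.46), while Hspa8 (1.87 and 1.89 against 2.29 and 2.26) and Hsp90ab1 are lower.

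Levels of different genes were compared as scaled counts per kilobase. Dividing by the longest annotated transcript, Cct5 had the highest level of the 8 subunits, 18923 ± 1083 per kilobase in MYC-PyMT and 7610 ± 1096 in Control-PyMT (SD, n = 2 each). Cct2 came next in both groups, at 12614 ± 307 in MYC-PyMT and 4658 ± 684 in Control-PyMT (SD, n = 2 each). Cct7 was the lowest, at 4684 ± 33.7 in MYC-PyMT and 2268 ± 270 in Control-PyMT (SD, n = 2 each). The highest subunit was thus 4.04 times the lowest in MYC-PyMT and 3.36 times in Control-PyMT, although the complex holds the subunits in equal number.

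That order rests on the length used. For Tcp1, Cct3, Cct7 and Hspa8 the longest annotated transcript retains an intron. With the transcript that has the most exons, a choice made after the values were seen, Cct5 stayed first in both groups and the span was 2.54 times in MYC-PyMT and 2.69 times in Control-PyMT. Cct6a then came second in both groups, at 15130 ± 1988 in MYC-PyMT and 6307 ± 1586 in Control-PyMT (SD, n = 2 each). In Control-PyMT, Cct4, Cct7 and Tcp1 had 3587 ± 751, 3609 ± 429 and 3621 ± 897 per kilobase (SD, n = 2 each) and did not differ beyond their spread. Cct8 was lowest in Control-PyMT at 2826 ± 536 (SD, n = 2). In MYC-PyMT it had 8485 ± 101, above Cct4 (8064 ± 895), Tcp1 (8063 ± 1238) and Cct7 (7453 ± 53.6), though within the spread of Cct4 and Tcp1 (SD, n = 2 each). On the same lengths, Hsp90ab1 had 54458 ± 8099 per kilobase in MYC-PyMT and 30379 ± 4421 in Control-PyMT, and Hspa8 had 34658 ± 1076 and 18903 ± 3977 (SD, n = 2 each), both far above any subunit. With the union of all annotated exons as the length, Cct5 was again first and Cct7 was last in both groups, and the span was 4.72 times in MYC-PyMT and 3.92 times in Control-PyMT.

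**Figure D4:**
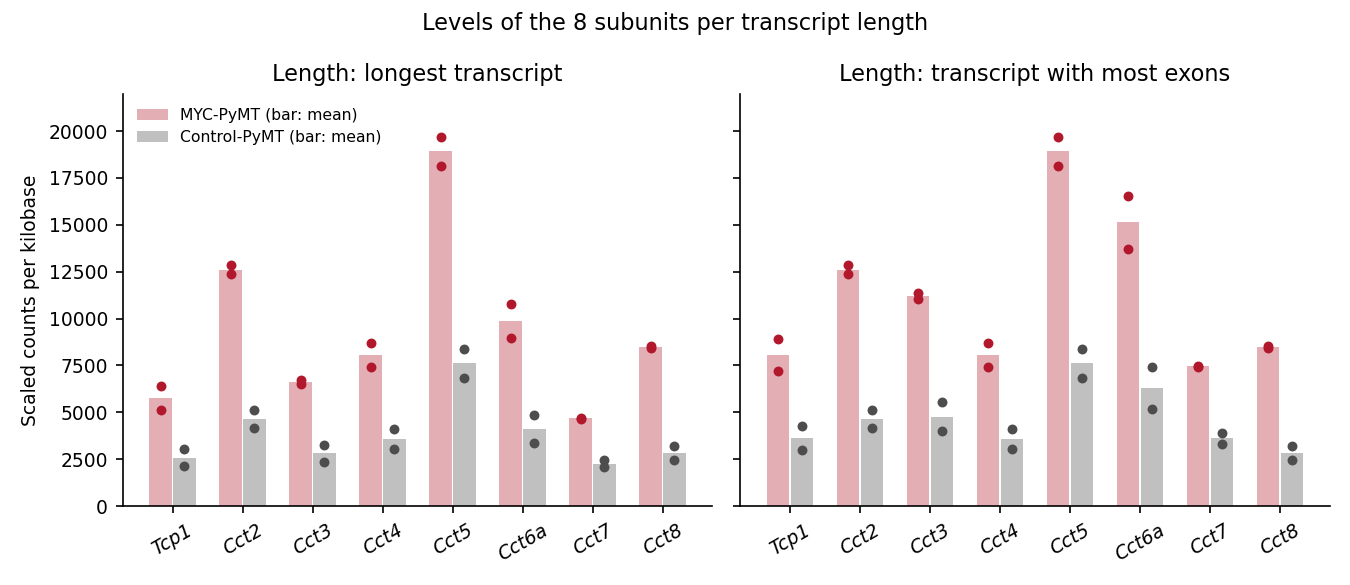
Scaled counts per kilobase of the 8 subunits, MYC-PyMT in red at the left of each pair and Control-PyMT in grey at the right, with lengths from the longest transcript (left panel) and from the transcript with most exons (right panel); bars are means and points the 2 libraries. Cct5 is highest in both panels, at 18923 in MYC-PyMT and 7610 in Control-PyMT, while the levels of Tcp1, Cct3, Cct6a and Cct7 shift with the length used.

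The genes whose pattern over the 4 libraries lay nearest to the mean pattern of the 8 subunits were sought among 9072 genes with a mean of at least 500 scaled counts. By Euclidean distance of centred log2 values, the nearest outside the 10 were Znhit3 (0.026), Kif23 (0.030), Pwp1 (0.032), Smc2 (0.033) and the entry Gm7536 (0.038). Kif23 encodes a kinesin of the dividing cell's midbody and Smc2 a condensin subunit, but a role shared by all the nearest genes was not tested. Znhit3 had 1630 and 1656 scaled counts in MYC-PyMT, against 757 and 581 in Control-PyMT. The subunits' own distances ran from 0.066 (Cct3) to 0.31 (Cct8), and those of Hspa8 and Hsp90ab1 were 0.40 and 0.51. Each pattern has only 4 points.

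Factors that work around the chaperonin did not all move with it. Prefoldin, the jellyfish-shaped complex that hands actin and tubulin chains to TRiC, had 3 of 6 subunits higher and none lower (median log2 change 0.89). The shares over all tested genes were 23.3% higher and 24.6% lower. Pfdn6 had 2570 and 3178 scaled counts in MYC-PyMT, against 1173 and 1030 in Control-PyMT (log2 change 1.38, SE 0.20, limma adjusted p = 0.000417). Pfdn2 rose by 1.25 (SE 0.19, limma adjusted p = 0.000530) and Pfdn4 by 1.41 (SE 0.23, limma adjusted p = 0.000876). Pfdn5, also known as a MYC-binding protein, had 4081 and 3658 in MYC-PyMT and 5013 and 4316 in Control-PyMT (log2 change -0.27, SE 0.18, limma adjusted p = 0.257). The prefoldin calls numbered 3 without each library in turn.

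The phosducin-like and thioredoxin-like partners of TRiC gave 0 calls among the 3 tested, Pdcl, Pdcl3 and Txndc9, with log2 changes from -0.20 (Pdcl) to 0.060 (Txndc9); 0 had an unadjusted p under 0.05, and edgeR and DESeq2 called 0. Pdcl2 was under the level filter. Of all tested genes 47.9% passed in either direction, and 0 calls among so few genes do not set a list apart. The paralogs also gave 0 calls among 4 tested, with 0 at an unadjusted p under 0.05 and 0 by edgeR or DESeq2: Mkks had a log2 change of 0.30 (SE 0.23, limma adjusted p = 0.319) and Bbs12 of 0.28 (SE 0.23, limma adjusted p = 0.331), both chaperonin-like proteins that help assemble the ciliary BBSome. Cct6b, the testis form of the zeta subunit, had 12.1 and 9.89 scaled counts in MYC-PyMT and 11.2 and 11.9 in Control-PyMT (log2 change -0.073, SE 0.48, limma adjusted p = 0.915). Per kilobase of the longest transcript, Cct6a exceeded it 1386-fold and 2038-fold in MYC-PyMT and 807-fold and 532-fold in Control-PyMT.

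In the prefoldin-like complex and R2TP, which assembles RNA polymerases and kinases with HSP90, 5 of 7 genes were higher and none lower (median 0.88), and 3 without MYC-PyMT replicate 2 or Control-PyMT replicate 2. Of these 7 genes 71.4% were higher, beside 23.3% of all tested genes. The AAA+ ATPases led. Ruvbl2 had 5489 and 7237 scaled counts in MYC-PyMT, against 1688 and 1736 in Control-PyMT (log2 change 1.88, SE 0.20, limma adjusted p = 7.82e-05). Ruvbl1 had 2493 and 2614 in MYC-PyMT, against 966 and 811 in Control-PyMT (log2 change 1.53, SE 0.19, limma adjusted p = 0.000206).

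Of 16 actins, tubulins and other clients of TRiC, 8 were higher, 3 lower and 5 did not pass (median 0.51), where 23.3% of all tested genes were higher and 24.6% lower. Without single libraries 5 to 7 were higher and 1 to 2 lower, with 5 higher when either MYC-PyMT library was left out and 1 lower when either Control-PyMT library was. Actb had 45888 and 56195 scaled counts in MYC-PyMT and 46925 and 47561 in Control-PyMT, groups that overlap (log2 change 0.10, SE 0.22, limma adjusted p = 0.726). Actg1 had 18162 and 15685 in MYC-PyMT and 14102 and 14800 in Control-PyMT (log2 change 0.22, SE 0.19, limma adjusted p = 0.363). Neither of the cytoplasmic actins, the best-known clients, thus passed the test.

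Among the tubulins, Tuba1b rose, with 6903 and 7324 scaled counts in MYC-PyMT against 2850 and 2246 in Control-PyMT (log2 change 1.49, SE 0.19, limma adjusted p = 0.000234). Tubb5, a beta-tubulin of many tissues, had 38376 and 41768 in MYC-PyMT and 17051 and 15105 in Control-PyMT (log2 change 1.32, SE 0.20, limma adjusted p = 0.000607). Tuba1a fell, with 1060 and 1528 in MYC-PyMT against 4756 and 3397 in Control-PyMT (log2 change -1.66, SE 0.24, limma adjusted p = 0.000441). Tubulin isotypes thus moved in both directions, and reads of these close paralogs may be shared. Cdc20, a TRiC client that switches on the ubiquitin ligase APC/C in mitosis, had 6025 and 5429 in MYC-PyMT, against 1392 and 1267 in Control-PyMT (log2 change 2.11, SE 0.18, limma adjusted p = 2.89e-05). Of the 5 tubulin cofactors that act after TRiC (median 0.32), 40.0% were higher and none lower, beside 23.3% and 24.6% of all tested genes. Tbcb was higher by 0.70 (SE 0.19, limma adjusted p = 0.0138) and Tbcd by 0.77 (SE 0.18, limma adjusted p = 0.00608). Neither call held without MYC-PyMT replicate 2.

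**Figure D5:**
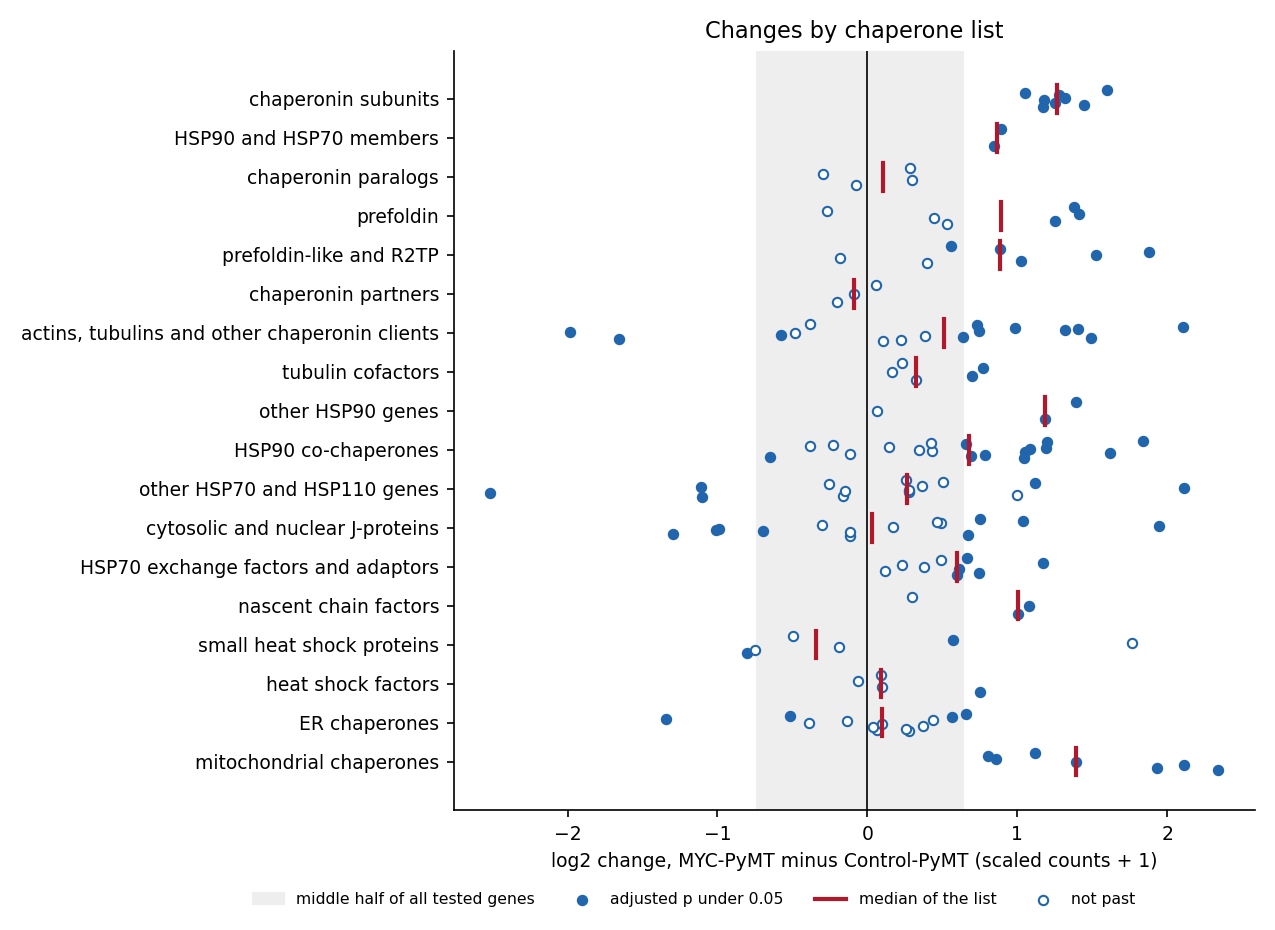
Log2 change (MYC-PyMT minus Control-PyMT) of every tested gene of each chaperone list; filled points have a limma adjusted p under 0.05, red bars are list medians, and the grey band spans the quartiles of all tested genes, -0.74 to 0.64. The chaperonin subunits (median 1.26) and the mitochondrial chaperones (median 1.39) lie wholly to the right of the band, while ER chaperones (median 0.094) lie mostly within it.

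Of the 3 other HSP90 genes 2 were higher (66.7%) and none lower (median 1.18), beside 23.3% higher and 24.6% lower of all tested genes. Hsp90aa1, the more inducible cytosolic HSP90, had 23811 and 26082 scaled counts in MYC-PyMT, against 13078 and 9208 in Control-PyMT (log2 change 1.18, SE 0.22, limma adjusted p = 0.00186). In scaled counts per kilobase of the longest transcript, Hsp90ab1 exceeded Hsp90aa1 8.29-fold and 6.13-fold in MYC-PyMT and 8.41-fold and 9.71-fold in Control-PyMT. Trap1, the mitochondrial HSP90, had 10105 and 9429 in MYC-PyMT, against 3807 and 3632 in Control-PyMT (log2 change 1.39, SE 0.18, limma adjusted p = 0.000223). Hsp90b1, the form of the endoplasmic reticulum (ER), had 23547 and 29684 in MYC-PyMT and 26718 and 23854 in Control-PyMT, with overlap (log2 change 0.067, SE 0.21, limma adjusted p = 0.820). Its sign turned when the second library of either group was left out, to -0.10 in MYC-PyMT and -0.015 in Control-PyMT, and under upper-quartile scaling, to -0.038.

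Of 18 HSP90 co-chaperones, 10 were higher (55.6%), 1 lower (5.56%) and 7 did not pass (median 0.68). Of all tested genes 23.3% were higher and 24.6% lower. With single libraries left out, as many or fewer co-chaperones were higher. Cacybp, the calcyclin-binding protein, had 10754 and 14335 scaled counts in MYC-PyMT, against 4223 and 2867 in Control-PyMT (log2 change 1.83, SE 0.24, limma adjusted p = 0.000231). Ptges3, the co-chaperone p23 that holds HSP90 closed, had 10163 and 14398 in MYC-PyMT, against 4523 and 3439 in Control-PyMT (log2 change 1.62, SE 0.23, limma adjusted p = 0.000382). Ahsa1, which speeds HSP90's ATPase, rose by 1.04 (SE 0.19, limma adjusted p = 0.00162). The 1 that was lower, Ahsa2, had a log2 change of -0.65 (SE 0.20, limma adjusted p = 0.0245) and did not pass without any 1 of the 4 libraries.

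The list of 14 other HSP70 and HSP110 genes had 2 higher (14.3%), 3 lower (21.4%) and 9 that did not pass (median 0.26), where 23.3% of all tested genes were higher and 24.6% lower. Hspa14, a ribosome-associated HSP70, was 1 of the 2 that were higher, at 1.12 (SE 0.21, limma adjusted p = 0.00172). Hspa9, the mitochondrial HSP70, had 55856 and 68305 scaled counts in MYC-PyMT, against 16101 and 12700 in Control-PyMT (log2 change 2.11, SE 0.22, limma adjusted p = 8.41e-05). Hspa5, the ER form BiP, had 32847 and 39903 in MYC-PyMT and 32484 and 27593 in Control-PyMT; its log2 change was 0.27 (SE 0.22, limma adjusted p = 0.327). Hspa2, known from testis, fell to 184 and 170 in MYC-PyMT, against 913 and 1136 in Control-PyMT (log2 change -2.52, SE 0.23, limma adjusted p = 4.24e-05). In that list 1 gene was lower without MYC-PyMT replicate 1, Control-PyMT replicate 1 or Control-PyMT replicate 2.

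Hspa1a, Hspa1b, Hsph1 and Dnajb1, which heat shock raises, were not called higher, while Hsp90aa1, given above, was. Hspe1, whose window also held heat shock units, was called higher too (log2 change 1.93). These are not all the genes that heat shock raises. Hspa1a had 87.6 and 196 scaled counts in MYC-PyMT, against 300 and 265 in Control-PyMT (log2 change -1.10, SE 0.37, limma adjusted p = 0.0329); it passed only without MYC-PyMT replicate 2, and its limma adjusted p reached 0.312 without the other libraries. Hspa1b had 816 and 1741 in MYC-PyMT and 1307 and 1356 in Control-PyMT (log2 change -0.16, SE 0.31, limma adjusted p = 0.695; 0.39 without MYC-PyMT replicate 1). These are near-identical copies, so reads may be split between them. Per kilobase of the longest transcript, Hspa8 exceeded Hspa1b 88.3-fold and 43.2-fold in MYC-PyMT and 35.3-fold and 25.2-fold in Control-PyMT. Hsph1, an HSP110 exchange factor, had a log2 change of 0.51 (SE 0.27, limma adjusted p = 0.146), and Dnajb1, an inducible J-protein, of -0.12 (SE 0.22, limma adjusted p = 0.679; 0.13 without Control-PyMT replicate 1).

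Hspb1, the small heat shock protein HSP27, had 846 and 1466 scaled counts in MYC-PyMT, against 1986 and 1912 in Control-PyMT (log2 change -0.81, SE 0.26, limma adjusted p = 0.0261). It passed without MYC-PyMT replicate 2 but not without MYC-PyMT replicate 1 (limma adjusted p = 0.327), Control-PyMT replicate 1 (limma adjusted p = 0.189) or Control-PyMT replicate 2 (limma adjusted p = 0.172). Hspb8 was the other called gene of 6 small heat shock proteins tested (median -0.34), at 0.57 (SE 0.20, limma adjusted p = 0.0382), and did not pass without any 1 of the 4 libraries. Hsf1, which drives the heat shock response, had 1057 and 1186 in MYC-PyMT, against 580 and 761 in Control-PyMT (log2 change 0.75, SE 0.22, limma adjusted p = 0.0174). Hsf1 did not pass without MYC-PyMT replicate 2 (limma adjusted p = 0.121) or Control-PyMT replicate 1 (limma adjusted p = 0.0817), and it was the 1 gene called of 4 heat shock factors tested. The other gene of that list named by rule, Hsbp1, which is not itself an Hsf gene, had a log2 change of 0.088 (SE 0.19, limma adjusted p = 0.726). With 1 of 4 called, the list was close to the 23.3% of all tested genes that were higher. The 6 small heat shock proteins had 1 higher and 1 lower, 16.7% each way, also close to the 23.3% higher and 24.6% lower of all tested genes.

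Of 14 J-proteins 4 were higher and 4 lower, 28.6% each way (median 0.028), beside 23.3% higher and 24.6% lower of all tested genes; without single libraries 2 to 5 were higher and 2 to 3 lower, and 2 were higher without MYC-PyMT replicate 2 and 2 lower without Control-PyMT replicate 2. Dnajc2, which sits on ribosomes and recruits HSP70 to new chains, had 4659 and 6245 scaled counts in MYC-PyMT, against 1683 and 1160 in Control-PyMT (log2 change 1.95, SE 0.23, limma adjusted p = 0.000163). Dnajb4 fell, with 933 and 878 in MYC-PyMT against 1889 and 1758 in Control-PyMT (log2 change -1.01, SE 0.19, limma adjusted p = 0.00184). Of 3 nascent chain factors 2 were higher (median 1.00), the subunits of the nascent polypeptide-associated complex: Naca rose by 1.00 (SE 0.22, limma adjusted p = 0.00424) and Btf3 by 1.08 (SE 0.22, limma adjusted p = 0.00307). Of 9 HSP70 exchange factors and adaptors 5 were higher and none lower (median 0.60), led by Hspbp1 at 1.17 (SE 0.21, limma adjusted p = 0.00166). Bag2 was at 0.75 (SE 0.19, limma adjusted p = 0.00906) and passed without 2 of the 4 single libraries. Leaving out MYC-PyMT replicate 1 left 1 of them higher, MYC-PyMT replicate 2 left 2, and Control-PyMT replicate 2 left 3.

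Chaperones of the organelles were also counted, beside all tested genes, of which 23.3% were higher and 24.6% lower. In mitochondria, 7 of 7 were higher (median 1.39; 6 to 7 without single libraries). Hspd1, the mitochondrial chaperonin, had 35639 and 38397 scaled counts in MYC-PyMT, against 8047 and 6628 in Control-PyMT (log2 change 2.34, SE 0.20, limma adjusted p = 2.70e-05). Hspe1, its co-chaperonin, had 9779 and 12318 in MYC-PyMT, against 3462 and 2391 in Control-PyMT (log2 change 1.93, SE 0.23, limma adjusted p = 0.000139). In the ER, 2 of 13 were higher, 2 lower and 9 did not pass (median 0.094). That is 15.4% each way, beside 23.3% and 24.6% of all tested genes, and the gap was not tested. Without either MYC-PyMT library 0 of them were higher, without Control-PyMT replicate 2 1 was, and 1 was lower each time. The lower ones were led by Dnajb9, a partner of BiP, at -1.34 (SE 0.20, limma adjusted p = 0.000464), and the higher ones include Sdf2l1 at 0.66 (SE 0.18, limma adjusted p = 0.0140), which passed without 2 of the 4 single libraries.

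Markers of other cell types and of dividing cells were set beside all tested genes, of which 23.3% were higher and 24.6% lower. A single call in a list of 4 or 5 markers is close to those shares, so it does not show that a cell type shifted. All 7 dividing cell markers (Mki67, Top2a, Ccnb1, Cdk1, Mcm2, Mcm5 and Pcna) were higher, with a median log2 change of 1.37 and summed levels of 55285 and 54918 scaled counts in MYC-PyMT and 23337 and 19402 in Control-PyMT. Of 5 luminal markers 2 were lower (Krt19 and Cdh1), and of 5 basal markers 2 were lower (Acta2 and Trp63) and 1 higher (Krt14), with sums of 11153 and 25043 in MYC-PyMT and 30542 and 27923 in Control-PyMT. All 4 T and NK cell markers were lower, with sums of 22.1 and 15.4 in MYC-PyMT and 255 and 234 in Control-PyMT. Neutrophil markers summed to 2711 and 3931 in MYC-PyMT and 3190 and 1043 in Control-PyMT (3 of 6 higher), and macrophage markers to 12507 and 14664 in MYC-PyMT and 12466 and 14207 in Control-PyMT (1 of 5 higher, 1 lower). Endothelial markers summed to 2389 and 2636 in MYC-PyMT and 1633 and 2272 in Control-PyMT (1 of 4 higher, 1 lower), and fibroblast markers to 9402 and 12222 in MYC-PyMT and 8782 and 13025 in Control-PyMT (1 of 4 higher, 2 lower). Adipocyte markers summed to 3268 and 2783 in MYC-PyMT and 577 and 1813 in Control-PyMT (1 of 3 higher). With single libraries left out, 7 of 7 dividing cell markers stayed higher and 4 of 4 T and NK cell markers lower, whereas 0 to 1 luminal markers were lower, 0 to 3 basal, 1 to 4 neutrophil, 0 to 1 endothelial and 0 to 2 fibroblast markers higher, and 0 to 1 macrophage markers lower. Every marker of these lists had reads in all 4 libraries, and the part of these shifts in the chaperone changes was not tested. In bulk tumour RNA, more cells of a type and more RNA per cell cannot be told apart.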

How the data were processed

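Per the labels' protocols, poly(A)-selected TruSeq Stranded mRNA libraries were made from 500 ng of RNA of integrity 3.3 to 9.6 (RIN, not tied to libraries), with 8 PCR cycles. Reads were aligned with HISAT2 to mm10 (GRCm38.p5) and DESeq2 was used, per the submitters' processing notes (counter, strandedness and annotation: not given in the sources used here). The deposited values are scaled counts, a signal that is not divided by gene length. In all 4 libraries 100% of values were whole multiples (within 0.001 reads) of the worth of 1 read, 1.01 and 1.10 scaled counts in MYC-PyMT and 0.935 and 0.849 in Control-PyMT. Reads were recovered from these steps.

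The main test was limma 3.58.1 (R 4.3.3) with a variance trend on log2(scaled count + 1), two-sided, with Benjamini-Hochberg adjustment over the 16725 genes with at least 10 in at least 2 libraries and a 0.05 cutoff. All fold changes use that scale. The labels do not say whether replicates are separate mice, so p-values cover only the spread between libraries, which may be technical. Replicates differed by more than counting noise (chi-square per degree of freedom 39.7 in MYC-PyMT, 54.7 in Control-PyMT). Replicate numbers did not pair the libraries. Alternatives were other pseudocounts, filters, scalings and thresholds, no variance trend, a replicate block, each library left out, removal of the transcript length trend, and edgeR 4.0.16 and DESeq2 1.42.0 on the recovered reads. The fit was tested on simulated counts with a fixed spread and few changed genes, unlike these data. That test does not give error rates for these libraries.

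Coordinates, transcripts and overlaps came from GENCODE mouse release 21 (GRCm38), and near-copies from BLAST+ 2.17.0 at 95% identity or more. The members and gene lists were chosen with earlier results of these data known. Genes named were the 10 members, the 2 of each list with the smallest p, 12 fixed relatives and the 5 nearest patterns; other genes were named after their values were seen. Cct8l1 and Hspb3 matched no row, and Pdcl2 and Hsf5 were under the filter.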

Additional observations from a re-analysis of the deposited data

How the results depend on the processing

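The 10 genes all passed as higher under every alternative that kept all 4 libraries: other pseudocounts (0.5, 5), filters (none, 50), scalings (upper quartile, TMM) and threshold (0.10), the replicate block, no variance trend, edgeR, DESeq2 and removal of the transcript length trend. With 1 library left out, 8 to 9 of the 10 passed, and the 8 subunits passed each time; the log2 change then ran from 0.69 to 0.99 for Hsp90ab1 and from 0.67 to 1.11 for Hspa8. A group left with 1 library is assumed to vary like the other. The replicate numbers did not pair the libraries (correlation of replicate differences -0.09 over 16725 genes); with the replicate block 8039 genes passed. Over all tested genes edgeR called 7925 and DESeq2 7293. With 1 library left out, 5236 to 6480 genes passed in all and 2573 to 3433 as lower. Over all chaperone lists other than the 10 genes, 52 genes were higher and 14 lower; with 1 library left out 33 to 49 were higher and 5 to 11 lower, and 9 were lower without the variance trend. The causes were not tested. Beside these list counts, 23.3% of all tested genes were higher and 24.6% lower with all 4 libraries kept. Both of those shares were smaller in each fit with 1 library left out. Upper-quartile scaling moved the median of all genes by -0.10. Under it small positive log2 changes turned sign, among them Hsbp1 to -0.017 and Hsp90b1 to -0.038. Removing the length trend took Hsbp1 to -0.22. Genes near 0 also turned sign with 1 library left out. Among them, the log2 change then ran from -0.042 to 0.25 for Actb and -0.19 to 0.31 for Txndc9. It ran from -0.029 to 0.20 for Hsbp1, -0.10 to 0.23 for Hsp90b1 and -0.71 to 0.39 for Hspa1b. The range was -0.20 to 0.059 for Cct6b, -0.25 to 0.074 for Pdcl3, -0.37 to 0.13 for Dnajb1 and -0.017 to 0.61 for Mkks. None of the genes just named passed in any of those settings. Depth limits Cct6b, with 9.89 to 12.1 scaled counts, and not the 10 genes, whose lowest value was 5859.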
